A study of Mus musculus with 4 samples.

Results

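The genes of sebaceous and epidermal lipid synthesis described here are 40 mouse genes chosen by symbol, of 33696 genes in the count matrices, and all 40 were found. They cover the desaturases Scd1, Scd2 and Scd3, the elongases Elovl1, Elovl3, Elovl4, Elovl5, Elovl6 and Elovl7, and the enzymes of fatty acid synthesis Acly, Acaca, Acacb, Fasn and Me1. They also include the regulators Srebf1, Pparg and Insig1 and the triglyceride and lipid droplet genes Acsl1, Gpam, Agpat2, Lpin1, Dgat1, Dgat2, Plin2 and Cidea. The remaining members act in wax, ester and barrier lipids (Far1, Far2, Awat1, Awat2, Soat1, Fa2h), in sterol synthesis (Hmgcs1, Idi1, Fdps, Sqle, Lss) and in fatty acid binding (Fabp4, Fabp5), with Acoxl and Mgst1 beside them. Their levels were read from scRNA-Seq of the P3 digit of female C57BL/6 mice (C57BL/6J in the methods of the study) aged 6 to 8 weeks, in which the healing of the amputated digit tip was studied with lymphatic drainage or lymphatic signalling changed.

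There were 4 libraries, each made from hindlimb digits of 10 mice pooled and each its own batch in the labels. In the SAR131675 diet library the mice ate chow with SAR131675, an inhibitor of the lymphatic growth factor receptor VEGFR3, at 30 mg/kg for 8 days, and the control diet library came from mice on matched chow. In the LNR library lymph nodes, inguinal and popliteal in the methods of the study, had been removed from 1 extremity (lymph node removal, LNR). Its control, labelled as having no treatment and described in the series design as a sham, is called sham here. The study used the contralateral side as sham, so LNR and sham digits may come from the same mice, which the labels do not say. The labels name no day after amputation, and the text and a legend of the study differ on it for the diet pair. With 1 library for each condition there was no replicate, so no p-value was computed, and condition and batch cannot be told apart. All ranges after a value are exact 95% intervals that cover counting error only. After filtering, 29076 cells of the SAR131675 diet library, 24030 of the control diet library, 19827 of the LNR library and 20669 of the sham library were kept, with medians of 11316, 10712, 5725 and 5851 UMIs (unique molecular identifiers, counted transcripts) per cell. The diet libraries shared 348 cell barcodes with each other, and the LNR and sham libraries shared 130. The matrix headers name Cell Ranger 8.0.1 for the diet pair and 6.1.2 for the LNR pair, so levels are compared within a pair and set side by side between pairs.

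The sebaceous gland is an appendage of the hair follicle whose cells, sebocytes, divide at the edge of the gland, fill with lipid droplets as they move inward and burst to release sebum, a mix of triglycerides, wax esters, sterols and their esters. The fatty acids are made by Acly, the acetyl-CoA carboxylases and Fasn, desaturated by the Scd enzymes, lengthened by the Elovl enzymes and joined to glycerol, sterols or fatty alcohols. The cornifying epidermis uses part of the same machinery, with very long acyl chains, to build the ceramides of the water barrier. Pparg is the nuclear receptor of lipid-storing cells, and Srebf1 encodes the transcription factor of fatty acid synthesis.

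Cells were clustered without the 40 genes, and 1 class of cells in each pair carried the sebocyte markers, none of which was a member. Of 8 such markers, 7 were found in at least 5% of its cells. The class, called sebocyte-like, held 578 cells of the SAR131675 diet library (1.99% of kept cells), 512 of the control diet library (2.13%), 544 of the LNR library (2.74%) and 630 of the sham library (3.05%). The share of sebocyte-like cells differed by a log2 ratio of -0.10 (-0.27 to 0.074) between SAR131675 and control diet and of -0.15 (-0.32 to 0.016) between LNR and sham. Both intervals hold 0, but this was lost under other settings: with each cell classed by its own markers the log2 ratio was -0.40 (-0.76 to -0.035) in the diet pair and -0.23 (-0.46 to -0.0059) in the LNR pair, and in the LNR pair it was -0.45 (-0.79 to -0.12) at Leiden resolution 1.2, -0.28 (-0.51 to -0.055) without the shared barcodes and -1.18 (-1.47 to -0.89) when the libraries were clustered apart. The upper limits on genes and UMIs remove deeply sequenced cells: without these limits the class held 1012, 855, 704 and 780 cells. With the shared barcodes removed and the cells clustered again it held 566, 511, 288 and 365 cells, so its extent in the LNR pair depends on the clustering. One further cluster of 25 cells, present in the control diet library alone, had Serpina3j, Scd3, Fa2h, Far2 and Elovl4 among its 10 leading genes and 4.74% of its UMIs in the members. Its markers scored highest for spinous keratinocytes (0.725) and next for sebocytes (0.463), and it was left unnamed because its cells were shallow, with a median of 1563 UMIs against 10712 in their library, and no marker stood among its leading genes.

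The 40 members together took 3.20% of the UMIs of sebocyte-like cells on SAR131675 diet, 3.59% on control diet, 5.33% after LNR and 5.90% in sham. Granular keratinocyte-like cells followed, with 0.842%, 0.831%, 0.794% and 0.726% in the same order of libraries, and spinous keratinocyte-like cells had 0.727%, 0.742%, 0.552% and 0.536%. Blood endothelial-like cells reached 0.439%, 0.360%, 0.562% and 0.585%, of which Fabp4 is the main part. In basal keratinocyte-like cells the share was 0.153%, 0.144%, 0.136% and 0.127%. Summed over the cells of a class, sebocyte-like cells stood above every other named class in each of the 4 libraries, while the unnamed cluster of 25 cells in control diet was above them at 4.74%. Cell by cell the distance was smaller: the median sebocyte-like cell had 0.897%, 1.41%, 2.26% and 3.60% of its UMIs in the members, against 0.813%, 0.769%, 0.618% and 0.630% for the median granular keratinocyte-like cell, and the highest 10% of sebocyte-like cells lay above 9.98%, 10.2%, 11.9% and 12.2%.

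**Figure D1:**
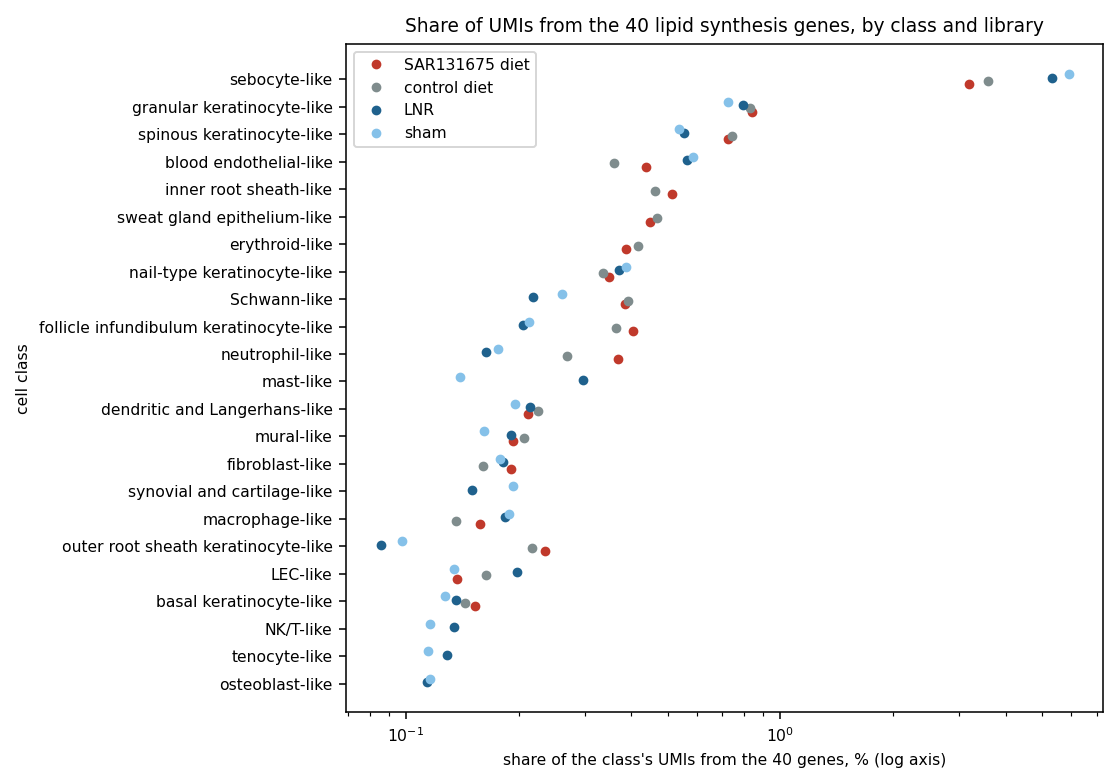
Percent of the UMIs of a cell class that fell in the 40 members (horizontal axis, percent, on a log axis) for each class (rows) and library (colours). The 4 points of sebocyte-like cells lie between 3.20% and 5.90%, and the next named class in each library stays under 1%.

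Of the 40 members, 26 had their highest level in sebocyte-like cells among 18 classes of the diet pair, and 31 did among 20 classes of the LNR pair, with the libraries of a pair summed. The leading class was not found for all genes, so no share over all genes stands beside these counts. Levels are in CPM, the UMIs of a gene in a class scaled to 1 fixed total for every class and library, and 4 values in a sentence are those of the SAR131675 diet, control diet, LNR and sham library in this order. Since a gene is counted near its 3' end, values are compared between cells for a gene and not between genes.

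Scd1, the desaturase that makes oleic and palmitoleic acid, was at 4636, 5861, 9357 and 10424 CPM in sebocyte-like cells. The next class by pair was Schwann-like, the glia of nerves, at 524, 686, 174 and 224 CPM, and basal keratinocyte-like cells were at 75.6, 88.5, 73.3 and 75.9 CPM. Sebocyte-like cells thus held 53.0%, 56.1%, 84.0% and 84.0% of all Scd1 UMIs of their library. A UMI of Scd1 was found in 97.1%, 96.9%, 98.3% and 97.3% of sebocyte-like cells, against 19.6%, 14.6%, 22.6% and 21.6% of macrophage-like cells, which serve here as a class with no sebaceous role. With each cell thinned to 3000 UMIs the shares were 86.3%, 89.7%, 88.4% and 89.3% against 10.3%, 6.28%, 15.2% and 17.6%. Median UMIs per cell were 14783, 13506, 13921 and 13060 in sebocyte-like and 7133, 7045, 3804 and 3483 in macrophage-like cells.

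Its paralogs parted ways. Scd3 was at 379, 352, 743 and 818 CPM in sebocyte-like cells, and no other named class exceeded 5.55 CPM in a library of the diet pair or 8.31 CPM, from 3 UMIs, in one of the LNR pair. The unnamed cluster of 25 cells in control diet was at 1434 CPM, from 59 UMIs. Scd2 was highest in Schwann-like cells (812, 877, 294 and 482 CPM) and was close to its lowest in sebocyte-like cells (39.8, 25.4, 23.9 and 26.6 CPM), which ranked 17 of 18 classes in the diet pair and 20 of 20 in the LNR pair.

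The elongases divided between gland and epidermis. Elovl3 and Elovl6, which lengthen saturated and monounsaturated chains, were led by sebocyte-like cells, Elovl3 at 226, 301, 593 and 693 CPM and Elovl6 at 3495, 3621, 4058 and 4563 CPM. The runner-up of Elovl6 was the granular keratinocyte-like class at 192, 177, 96.8 and 115 CPM. Elovl4, the elongase of very long chains used in the ceramides of the barrier, was high in both classes: 3182, 2800, 5776 and 6460 CPM in sebocyte-like and 1908, 1704, 1043 and 1134 CPM in granular keratinocyte-like cells, against 29.2, 23.1, 20.2 and 20.6 CPM in basal keratinocyte-like cells. Elovl1 followed the cornifying cells, with 523, 477, 355 and 332 CPM in granular keratinocyte-like cells and 16.0, 11.3, 10.4 and 9.22 CPM in sebocyte-like cells, the lowest of all classes in both pairs. Elovl7 was at 563, 529, 294 and 304 CPM in granular keratinocyte-like and 173, 295, 249 and 301 CPM in sebocyte-like cells. In the LNR pair these Elovl7 levels lay close together, and sham alone gave 304 against 301 CPM. Elovl5, which lengthens polyunsaturated chains, led in mural-like cells, the cells around vessels, at 501, 544, 159 and 156 CPM, with 113, 99.8, 130 and 145 CPM in sebocyte-like cells.

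All 5 enzymes of fatty acid synthesis were highest in sebocyte-like cells in both pairs. Fasn, the fatty acid synthase, was at 339, 361, 613 and 684 CPM there and at 49.1, 46.5, 67.2 and 60.9 CPM in granular keratinocyte-like cells. Me1, which supplies NADPH, was at 499, 512, 494 and 564 CPM against 199, 212, 131 and 119 CPM in granular keratinocyte-like cells. The carboxylases differed in how far they marked the gland: Acacb held 51.1%, 56.7%, 86.6% and 86.5% of its UMIs in sebocyte-like cells, whereas Acaca held 4.70%, 5.09%, 10.5% and 10.7%. Acaca was at 221, 241, 37.6 and 38.9 CPM in sebocyte-like cells, only 1.09 times the next class, inner root sheath-like cells, in the diet pair.

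Among the regulators, Pparg was at 652, 674, 130 and 143 CPM in sebocyte-like cells, followed by lymphatic endothelial-like cells (LECs) at 77.0, 87.3, 22.3 and 21.4 CPM. Srebf1 was led by the same class with less distance, at 212, 210, 134 and 104 CPM against 112, 127, 70.8 and 70.6 CPM in Schwann-like cells. Insig1, the sterol-sensing retention protein of the SREBP pathway, was at 111, 114, 114 and 123 CPM in sebocyte-like cells, while the sweat gland-like cells of the diet pair had 182 and 154 CPM.

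The triglyceride and droplet genes gave the most mixed picture, with Gpam and Cidea the only 2 of 8 that were led by sebocyte-like cells in both pairs. Cidea, a protein of the droplet surface that fuses droplets, was at 544, 637, 1207 and 1363 CPM, and 84.3%, 87.1%, 95.4% and 92.7% of its UMIs were in sebocyte-like cells. Gpam, which adds the opening acyl chain to glycerol phosphate, was at 283, 328, 165 and 172 CPM. Plin2, which coats droplets in many cell types, was at 974, 1128, 1084 and 1169 CPM in sebocyte-like cells and at 926 and 1315 CPM in the sweat gland-like cells of the diet pair. The enzymes of the last step of triglyceride synthesis were split: Dgat2 led in granular keratinocyte-like cells at 584, 611, 332 and 330 CPM, with 128, 132, 84.2 and 81.4 CPM in sebocyte-like cells. Dgat1 was at 64.5, 107, 163 and 172 CPM in sebocyte-like and at 161, 336, 73.7 and 86.3 CPM in neutrophil-like cells. Acsl1, which activates fatty acids, was a keratinocyte gene here, at 269, 297, 222 and 211 CPM in granular and 330, 379, 162 and 166 CPM in spinous keratinocyte-like cells against 18.1, 19.0, 14.6 and 12.2 CPM in sebocyte-like cells. Agpat2 and Lpin1 were low in all classes, and Agpat2 was highest in neutrophil-like cells at 27.3, 46.4, 33.7 and 35.7 CPM.

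Of the wax and ester genes, Far2, Awat1 and Fa2h had most of their UMIs in sebocyte-like cells in every library, as did Awat2 and Soat1, and Far1 had few. Far2, a reductase that turns fatty acids into the alcohols of wax, was at 1023, 1235, 1436 and 1563 CPM in sebocyte-like cells, and 87.5%, 89.1%, 96.2% and 93.3% of its UMIs fell there. The ubiquitous paralog Far1 was at 107, 114, 89.7 and 105 CPM and held 3.85%, 4.91%, 11.8% and 15.1% of its UMIs in the class. Awat1, an acyltransferase that makes wax esters, was at 289, 573, 499 and 581 CPM, with no other named class above 7.14 CPM in a library of the diet pair or 3.74 CPM in one of the LNR pair. Of the unnamed clusters the 25 cells of control diet had 413 CPM, from 17 UMIs. Few sebocyte-like cells carried it: an Awat1 UMI was present in 14.9%, 18.8%, 25.0% and 30.5% of them (11.0%, 14.3%, 19.7% and 23.3% at 3000 UMIs), against 0.718%, 0.151%, 0.376% and 0.622% of macrophage-like cells. Awat2 was at 127, 137, 111 and 119 CPM. Soat1, which esterifies cholesterol, was at 1032, 1041, 1026 and 1180 CPM in sebocyte-like cells and at 135, 127, 76.4 and 83.2 CPM in macrophage-like cells. Fa2h, the fatty acid 2-hydroxylase, was at 728, 864, 1389 and 1508 CPM in sebocyte-like cells, and Schwann-like cells, which use it for myelin lipids, followed at 151, 205, 28.5 and 42.0 CPM.

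The sterol genes were broad. Hmgcs1, which makes the substrate of HMG-CoA reductase, was at 1298, 1528, 1126 and 1241 CPM in sebocyte-like cells and at 397, 430, 353 and 342 CPM in granular keratinocyte-like cells. Idi1, the isomerase of the isoprenoid branch, was at 723, 814, 1222 and 1300 CPM. Sqle, the squalene epoxidase, lay at 147, 175, 197 and 224 CPM in sebocyte-like and at 204, 207, 145 and 139 CPM in granular keratinocyte-like cells, so the leading class changed between pairs. Lss, which closes the sterol ring, was at 80.4, 106, 141 and 167 CPM. Fdps was at 393, 398, 722 and 841 CPM, but its 3' end is shared with copies: 41.7% and 43.5% of its 60-base windows were also found in the genes Gm3571 and Gm43738, and its level is uncertain. None of the other 39 members shared such a window.

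The binding proteins separated vessel from gland. Fabp5 was at 6489, 7615, 15704 and 17364 CPM in sebocyte-like cells, with spinous keratinocyte-like cells at 3946, 3871, 3386 and 3258 CPM and basal keratinocyte-like cells at 264, 179, 423 and 363 CPM. Fabp4 was at 3102, 2325, 4191 and 4350 CPM in blood endothelial-like cells and at 3.64, 0.764, 12.9 and 5.00 CPM in sebocyte-like cells. Acoxl, an acyl-CoA oxidase-like protein, held 86.0%, 92.6%, 93.4% and 90.8% of its UMIs in sebocyte-like cells, where it was at 547, 677, 300 and 345 CPM. Mgst1, a microsomal glutathione transferase, was at 2362, 2331, 3582 and 3843 CPM there and at 312, 270, 346 and 339 CPM in fibroblast-like cells.

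**Figure D2:**
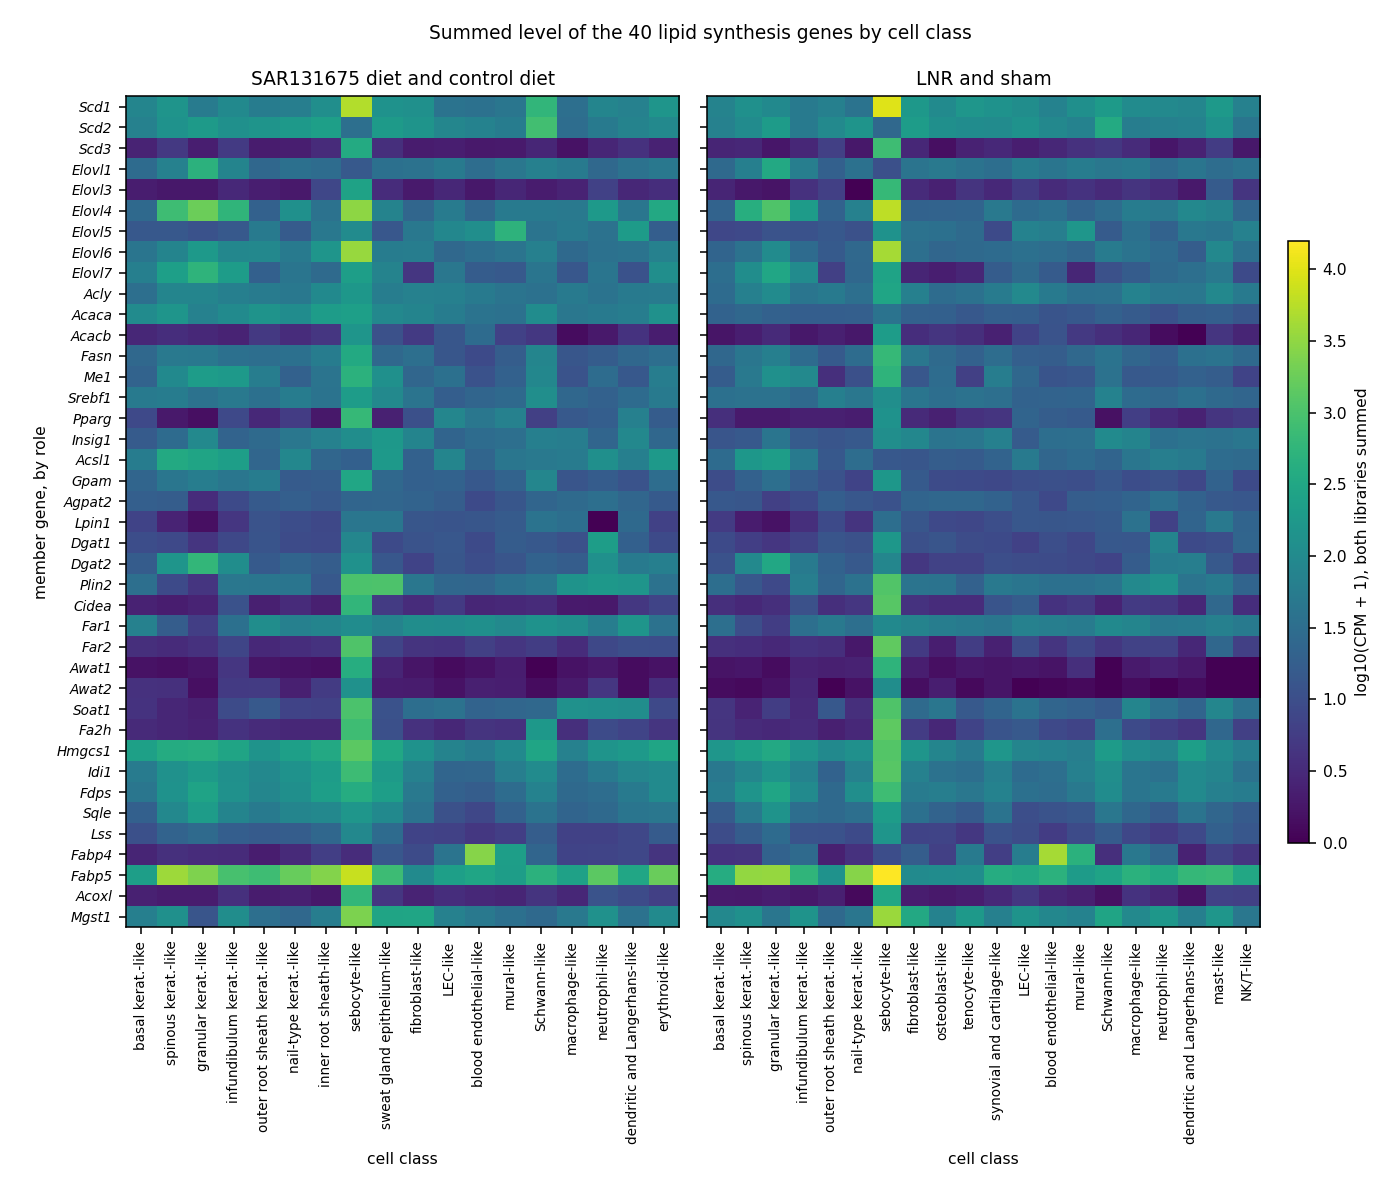
Levels of the 40 members (rows) in each cell class (columns) for the diet pair and the LNR pair, with the libraries of a pair summed; colour is log10 of CPM + 1. The sebocyte-like column is bright for most rows. Scd2, Elovl1, Elovl5, Elovl7, Acsl1, Agpat2, Lpin1, Dgat2 and Fabp4 are brightest elsewhere in both pairs, and Insig1, Dgat1, Plin2, Far1 and Sqle in the diet pair alone.

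Sebocyte-like cells were not uniform. They were clustered again without the 40 members and the other genes of the pathways, and the clusters were placed in 3 groups. Clusters with at least 500 CPM of Krt5 made the Krt5-high group. The others were called Akr1c21-high where Akr1c21 exceeded Bex1 in CPM, and Bex1-high where it did not. The division was made after the data were seen and is given as a description. The levels of these 3 genes follow in part from its rule. The Krt5-high group had Krt5, a keratin of the basal layer, at 1206, 1182, 1392 and 1355 CPM. It held the cells with most of the division gene Mki67, at 150, 195, 171 and 233 CPM. Krt14, also a basal keratin, did not part the groups in this way. In the diet pair it was at 2894 and 3291 CPM in the Krt5-high clusters, 2146 CPM in the Bex1-high and 3219 CPM in the Akr1c21-high group. In the LNR pair it was at 3574 and 3382 CPM, then 2294 CPM, then 3991 CPM. Mki67 was uneven within the Krt5-high group. In the LNR pair 64 and 75 of its cells formed a cluster at 556 CPM, and the other 184 and 188 were at 29.1 CPM. The Bex1-high group of that pair was at 14.8 CPM. In the diet pair the clusters of the Krt5-high group were at 208 and 64.3 CPM, and the Bex1-high group was at 30.3 CPM. The Bex1-high group had little Krt5 and carried Bex1 at 293, 193, 145 and 99.5 CPM. In the LNR pair its 10 leading genes also held the hemoglobin genes Hbb-bs, Hba-a1, Hbb-bt and Hba-a2, which were not among those of the diet pair. The source of this hemoglobin RNA was not tested. The Akr1c21-high group was marked by Akr1c21 at 2062, 2419, 2756 and 2543 CPM, by Krt79, a keratin of sebaceous duct and gland cells, at 3107, 3339, 4948 and 5128 CPM, and by the sebocyte marker Pnpla5 at 704, 565, 965 and 899 CPM. Mc5r, the melanocortin receptor of sebocytes, was at 114, 93.3, 64.2 and 61.2 CPM in the Krt5-high group and between 331 and 381 CPM in the other groups.

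With the groups listed as Krt5-high, Bex1-high and Akr1c21-high, the members took a larger share of UMIs in each than in the one listed before. This is an order of listing, and no order in time between the groups was tested. It was 0.812%, 0.772%, 0.750% and 0.678% in the Krt5-high group, 4.55%, 4.87%, 5.73% and 6.41% in the Bex1-high group and 12.7%, 11.7%, 12.5% and 12.5% in the Akr1c21-high group. The lowest library of a group stood above the highest library of the group before it. Median UMIs per cell in the Akr1c21-high group were 14707, 8004, 20237 and 17214, so its control diet cells were the shallowest.

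**Figure D3:**
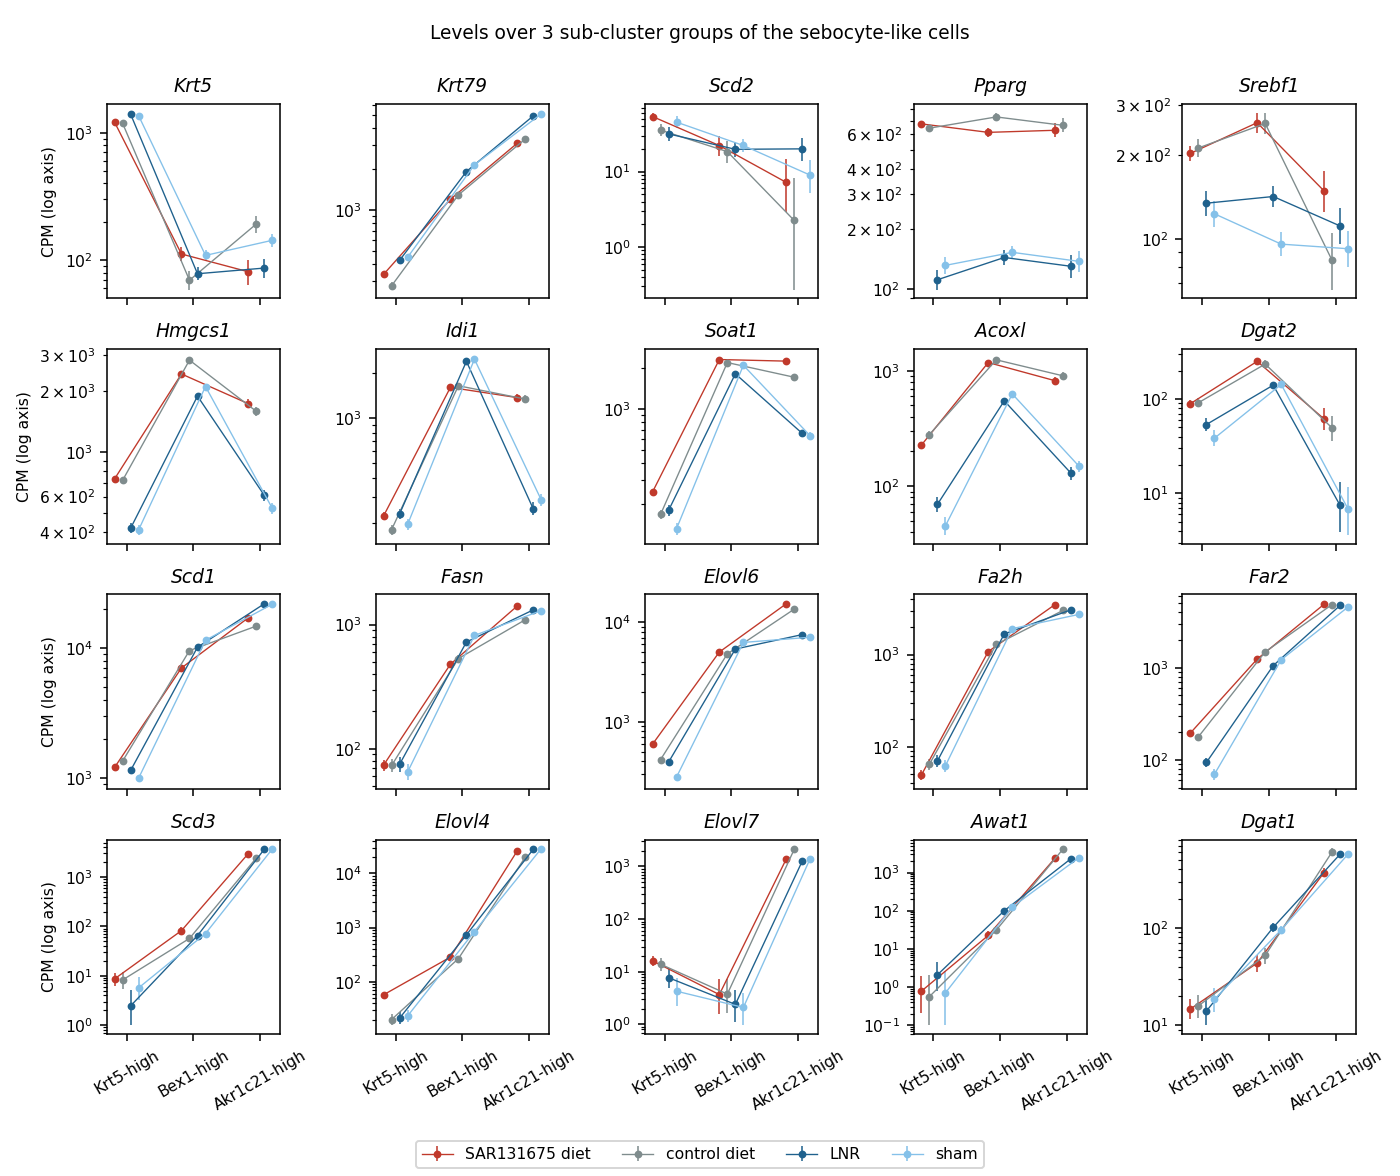
Levels of named members (panels, CPM on a log axis) in the Krt5-high, Bex1-high and Akr1c21-high groups of sebocyte-like cells, 1 point for each library, with exact 95% intervals for counting error as bars. Krt5, which was used to form the groups, and Krt79 are shown as markers of them. Scd3, Awat1, Elovl7 and Far2 peak in the Akr1c21-high group, Idi1, Soat1 and Dgat2 in the Bex1-high group, and Pparg stays level.

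Of the 40 members, 33 were highest in the same group in all 4 libraries. Leading groups were not counted over all genes, so how far these counts are particular to the members is not known. The Akr1c21-high group led for 22, among them Scd1, Scd3, all elongases but Elovl1, Fasn, Me1, Acly, Acacb, Plin2, Cidea, Dgat1, Far1, Far2, Awat1, Awat2, Fa2h and Fabp5. The Bex1-high group led for 9, which were Hmgcs1, Idi1, Fdps, Soat1, Dgat2, Agpat2, Lpin1, Acoxl and Mgst1. The Krt5-high group led for Scd2 and Elovl1, and the 7 others, Acaca, Srebf1, Pparg, Gpam, Sqle, Lss and Fabp4, changed their leading group between libraries. At a finer resolution 35 members were highest in 1 group in all 4 libraries, 32 of them in the group given here, and with cells of at least 3000 UMIs 34 were, 33 of them in the group given here.

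The wax genes differed widely between the groups. Awat1 was at 0.786, 0.567, 2.10 and 0.712 CPM in the Krt5-high group, at 22.6, 31.1, 100 and 125 CPM in the Bex1-high group and at 2389, 4138, 2321 and 2471 CPM in the Akr1c21-high group. In the same listing of groups Awat2 was at 15.7, 10.5, 3.86 and 6.05 CPM, at 57.5, 44.2, 21.6 and 21.2 CPM and at 867, 857, 512 and 505 CPM. Far2 was at 1239, 1484, 1052 and 1219 CPM in the Bex1-high group and at 4868, 4836, 4727 and 4552 CPM in the Akr1c21-high group. For these genes the lowest library of the Akr1c21-high group stood above the highest library of the other groups.

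The Akr1c21-high group exceeded the Bex1-high group 33.9 to 91.1-fold for Elovl4, 372 to 674-fold for Elovl7 and 36.4 to 56.2-fold for Scd3. For Scd1 it did so 1.54 to 2.44-fold and for Fasn 1.58 to 2.94-fold. Elovl4 and Scd3 were also higher in the Bex1-high than in the Krt5-high group, 4.96 to 36.0-fold and 6.93 to 26.5-fold. Elovl7 was not, at 0.229 to 0.491 of the Krt5-high level. Elovl4 was at 285, 268, 735 and 846 CPM in the Bex1-high group and at 25984, 19883, 27836 and 28674 CPM in the Akr1c21-high group. Elovl7 was at 3.68, 3.76, 2.40 and 2.10 CPM in the Bex1-high group and at 1371, 2103, 1255 and 1415 CPM in the Akr1c21-high group. Scd3 was likewise at 81.9, 56.9, 65.0 and 71.5 CPM against 2981, 2424, 3653 and 3707 CPM. By contrast Scd1 was at 1209, 1354, 1146 and 1001 CPM in the Krt5-high group, 7049, 9595, 10190 and 11533 CPM in the Bex1-high group and 17170, 14820, 22025 and 21870 CPM in the Akr1c21-high group. Fasn was at 73.9, 73.4, 75.0 and 65.1 CPM, then 479, 533, 724 and 818 CPM, then 1410, 1093, 1313 and 1296 CPM.

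Of the 5 sterol genes, Hmgcs1, Idi1 and Fdps peaked in the Bex1-high group in all libraries, as did Soat1, while Sqle and Lss changed their leading group. Idi1 was at 1602, 1643, 2389 and 2471 CPM there, and at 1370, 1341, 249 and 285 CPM in the Akr1c21-high group, a difference between groups that was wide in the LNR pair and narrow in the diet pair. Soat1 followed the same form with 2324, 2208, 1823 and 2108 CPM and then 2262, 1721, 663 and 636 CPM. Hmgcs1 was at 2426, 2841, 1885 and 2102 CPM and then at 1729, 1585, 608 and 524 CPM. The transferases of triglyceride synthesis again went opposite ways, with Dgat2 at 250, 234, 140 and 143 CPM in the Bex1-high and 61.6, 49.5, 7.49 and 6.85 CPM in the Akr1c21-high group, and Dgat1 at 43.7, 52.2, 101 and 96.0 CPM and then 371, 603, 571 and 573 CPM. Pparg was level over the groups, at 675, 642, 111 and 131 CPM in the Krt5-high, 612, 731, 144 and 153 CPM in the Bex1-high and 627, 664, 130 and 137 CPM in the Akr1c21-high group.

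Promoters are shown for 2 members of the Bex1-high group and 2 of the Akr1c21-high group, to set the DNA before genes with different peaks side by side. They are the 250 bases before the RefSeq start on GRCm38.p6, while the submitters' notes name GRCm39 for the counts, and 29 of the 40 members had an entry. As a check on the start, a stretch just after it was looked for in the GENCODE transcripts, and it was found for Idi1, Awat1 and Scd3 and not for Hmgcs1, whose start is thus uncertain. Capitals mark CACCCCAC, the core of a sterol response element, and CCAAT, the box bound by NF-Y, on either strand (GTGGGGTG and ATTGG on the other). The Hmgcs1 window is chr13:119690101-119690350, the Idi1 window chr13:8885356-8885605, the Awat1 window chrX:100571997-100572246 and the Scd3 window chr19:44203038-44203287, all on the plus strand.
Hmgcs1: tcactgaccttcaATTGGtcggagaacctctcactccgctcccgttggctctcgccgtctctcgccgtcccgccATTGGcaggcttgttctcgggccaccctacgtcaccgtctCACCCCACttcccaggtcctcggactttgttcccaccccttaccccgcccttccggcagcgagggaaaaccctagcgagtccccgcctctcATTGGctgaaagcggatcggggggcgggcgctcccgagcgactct
Idi1: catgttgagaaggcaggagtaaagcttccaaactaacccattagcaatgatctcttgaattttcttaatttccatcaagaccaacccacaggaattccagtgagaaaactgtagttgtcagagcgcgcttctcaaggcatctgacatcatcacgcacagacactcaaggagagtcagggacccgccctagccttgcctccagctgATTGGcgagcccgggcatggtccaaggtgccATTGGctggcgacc
Awat1: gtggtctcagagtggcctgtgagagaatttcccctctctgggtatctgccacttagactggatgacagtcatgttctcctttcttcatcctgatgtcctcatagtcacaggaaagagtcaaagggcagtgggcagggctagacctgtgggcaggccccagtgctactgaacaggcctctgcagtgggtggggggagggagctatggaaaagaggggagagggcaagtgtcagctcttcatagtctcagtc
Scd3: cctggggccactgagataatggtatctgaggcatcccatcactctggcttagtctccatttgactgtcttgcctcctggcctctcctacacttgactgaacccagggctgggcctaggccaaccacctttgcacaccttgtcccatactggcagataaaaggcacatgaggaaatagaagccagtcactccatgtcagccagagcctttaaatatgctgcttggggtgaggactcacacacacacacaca

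The windows of Hmgcs1 and Idi1 hold such letters and those of Awat1 and Scd3 hold none, but the groups as a whole were not parted in this way: CCAAT was found for 4 of 7 members led by the Bex1-high group and for 9 of 16 led by the Akr1c21-high group, and CACCCCAC for 1 and 2 of them. Over the 39 promoters of members, CACCCCAC was found in 4 (10.3%; those of Hmgcs1, Gpam, Acsl1 and Elovl7), against 2.58% of all 32851 promoters. CCAAT was found in 21 (53.8%), against 33.8% of all, and AGGTCA, the core site of nuclear receptors (TGACCT on the other strand), in 10 (25.6%), against 14.0%. These are counts of letters, a promoter may hold several motifs, and no test was made.

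The share of the groups among sebocyte-like cells was set side by side within each pair. The Krt5-high group was 66.4% (62.4 to 70.3%) of them on SAR131675 diet, 384 of 578 cells, and 55.1% (50.7 to 59.4%) on control diet, 282 of 512 cells. The Akr1c21-high group was 11.8% (9.25 to 14.7%) and 16.2% (13.1 to 19.7%) in turn, and the Bex1-high group 21.8% and 28.7%. In the LNR library the Krt5-high group was 45.6% (41.3 to 49.9%), and in sham it was 41.7% (37.9 to 45.7%), beside 39.2% and 40.0% for the Bex1-high group. The Akr1c21-high group was 15.3% (12.3 to 18.6%) in LNR and 18.3% (15.3 to 21.5%) in sham. The intervals of the Krt5-high share did not overlap in the diet pair and overlapped in the LNR pair; they take no account of the spread between mice.

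**Figure D4:**
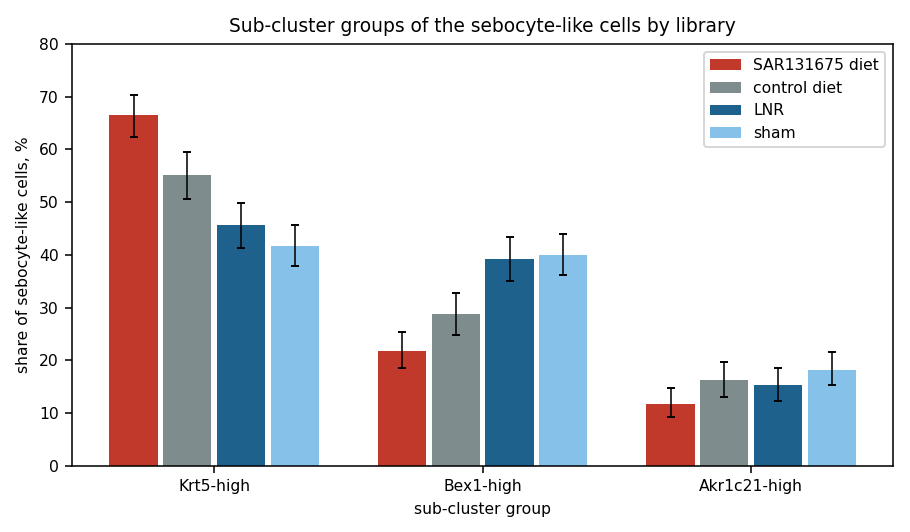
Percent of sebocyte-like cells in the Krt5-high, Bex1-high and Akr1c21-high groups for each library, with exact 95% intervals for counting error as bars. The Krt5-high share is 66.4% on SAR131675 diet and 55.1% on control diet, and 45.6% and 41.7% in LNR and sham.

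To ask what VEGFR3 inhibition did to these genes, the SAR131675 diet library was compared with the control diet library. In sebocyte-like cells Awat1, Dgat1 and Elovl7 were lower and Scd2 was higher by at least 1.5-fold, the size used to name a gene. Awat1 was at 289 CPM (277 to 301) on SAR131675 diet and 573 CPM (555 to 591) on control diet, a log2 ratio of -0.99 (-1.06 to -0.91). The 10 cells richest in Awat1 carried 47.1% of its UMIs on SAR131675 diet and 58.7% on control diet, and for Elovl7 they carried 56.5% and 63.4%, so that these values rest on few cells, which the intervals do not cover. Dgat1 had a log2 ratio of -0.74 (-0.90 to -0.57) and Elovl7 one of -0.77 (-0.87 to -0.67). Scd2 stood at 39.8 against 25.4 CPM, a log2 ratio of 0.65 (0.38 to 0.93). The 3 lower members are all led by the Akr1c21-high group and Scd2 by the Krt5-high group, whose shares of cells differ in the same sense between these libraries. The part of these shares in the differences was not tested, and ratios within the groups are given below. In sebocyte-like cells 1 of 39 tested members was thus higher and 3 were lower, where 1.22% of all 9541 tested genes were higher and 1.73% lower. Over the 7 alternative settings Awat1 kept its direction, at -1.02 to -0.30, and Dgat1 too, at -0.74 to -0.45, while Elovl7 turned to 0.14 where each cell was classed by its own markers. The median log2 ratio was -0.13 for the members and -0.02 for all tested genes, with 32 of the 39 members below 0 beside 54.7% of all tested genes.

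Within the Akr1c21-high group the same 3 genes were lower past 1.5-fold, and Srebf1 was higher, at 149 against 84.3 CPM (0.82; 0.41 to 1.24), where 2.46% of all 3013 tested genes were higher and 4.61% lower. Awat1 was at 2389 against 4138 CPM, a log2 ratio of -0.79 (-0.87 to -0.72), Dgat1 at 371 against 603 CPM (-0.70) and Elovl7 at 1371 against 2103 CPM (-0.62). Other members lower in this group by less than 1.5-fold included Plin2, at 1617 against 2357 CPM (-0.54; -0.64 to -0.45), and Elovl3, at 1154 against 1497 CPM (-0.38). Some members led by the group lay level or above control: Elovl4 was at 25984 against 19883 CPM, Scd3 at 2981 against 2424 CPM and Awat2 at 867 against 857 CPM. These values also rest on few cells. The 10 richest sebocyte-like cells carried 54.7% and 55.3% of the Elovl4 UMIs on SAR131675 and control diet. For Scd3 they carried 60.2% and 65.6%, and for Awat2 43.0% and 53.1%. In the Krt5-high group Elovl4 was at 57.6 against 20.1 CPM, a log2 ratio of 1.52, Scd2 at 53.6 against 35.4 CPM (0.60) and Elovl1 at 21.0 against 13.6 CPM (0.63), where 1.27% of all 8445 tested genes were higher and 2.58% lower. The median log2 ratio of the members tested was 0.14 in the Akr1c21-high group (24 of 34 above 0), 0.07 in the Krt5-high group (20 of 35 above 0) and -0.05 in the Bex1-high group (14 of 35 above 0), so the lower median over all sebocyte-like cells was not seen in each group. The control diet cells of the Akr1c21-high group had fewer UMIs (a median of 8004 against 14707); the part of depth in these differences was not tested.

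In the 6 keratinocyte-like classes together, Soat1 and Acoxl were higher and Awat1 lower on SAR131675 diet, all at very low levels. Soat1 was at 4.28 against 2.20 CPM, from 980 and 414 UMIs, a log2 ratio of 0.96 (0.80 to 1.13). Acoxl was at 1.66 against 1.02 CPM (0.69; 0.44 to 0.95), and Awat1 at 0.638 against 1.07 CPM (-0.74; -1.06 to -0.43). For these genes sebocyte-like cells held 62.9% and 69.9%, 86.0% and 92.6%, and 88.8% and 90.6% of all UMIs of the libraries; the part of free RNA or misplaced sebocytes in the keratinocyte values was not tested. These were 2 of 40 members higher and 1 lower, where 2.68% of all 16180 tested genes were higher and 3.06% lower. The direction of these low values turned with the way cells were classed or weighted: Soat1 was at -0.09 and Acoxl at -0.26 with equal weight for each cell, and Awat1 at 0.40 with each library clustered alone. In granular keratinocyte-like cells the barrier members Elovl4, Elovl1 and Dgat2 lay within 1.5-fold, at 1908 against 1704 CPM, 523 against 477 CPM and 584 against 611 CPM.

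Read class by class, more members passed 1.5-fold on SAR131675 diet than in the 6 classes together. In basal keratinocyte-like cells Idi1 was higher, at 64.0 against 42.0 CPM (0.61; 0.54 to 0.67), as was Elovl3, at 1.36 against 0.888 CPM, which makes 2 of 40 members beside 1.57% of all 14341 tested genes. In spinous keratinocyte-like cells 6 of 39 tested members were higher, Elovl3, Pparg, Far2, Soat1, Fa2h and Acoxl, beside 1.67% of all 13018 tested genes, and all 6 were under 3 CPM in both libraries. Insig1 was the 1 member lower there, at 22.9 against 35.0 CPM (-0.61; -0.70 to -0.52), beside 2% of all genes. In follicle infundibulum keratinocyte-like cells 3 of 36 tested members were higher and 4 lower, beside 1.37% and 1.92% of all 10757 tested genes. Idi1 was higher there at 153 against 100 CPM (0.61; 0.52 to 0.70), Soat1 at 12.8 against 2.45 CPM (2.39; 1.89 to 2.93) and Fa2h at 3.81 against 2.45 CPM, while Awat1 was lower at 0.951 against 7.14 CPM (-2.91; -3.72 to -2.18), Insig1 at 16.9 against 26.3 CPM (-0.64; -0.86 to -0.43), Scd3 at 3.22 against 5.55 CPM and Awat2 at 3.07 against 5.49 CPM. In granular keratinocyte-like cells Plin2 was the 1 of 26 tested members past 1.5-fold, at 4.61 against 2.52 CPM (0.87; 0.28 to 1.48), beside 1.91% of all 8920 tested genes. In outer root sheath and nail-type keratinocyte-like cells 0 of 29 and 0 of 26 tested members passed. The alternative settings were not run for single classes of keratinocytes.

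**Figure D5:**
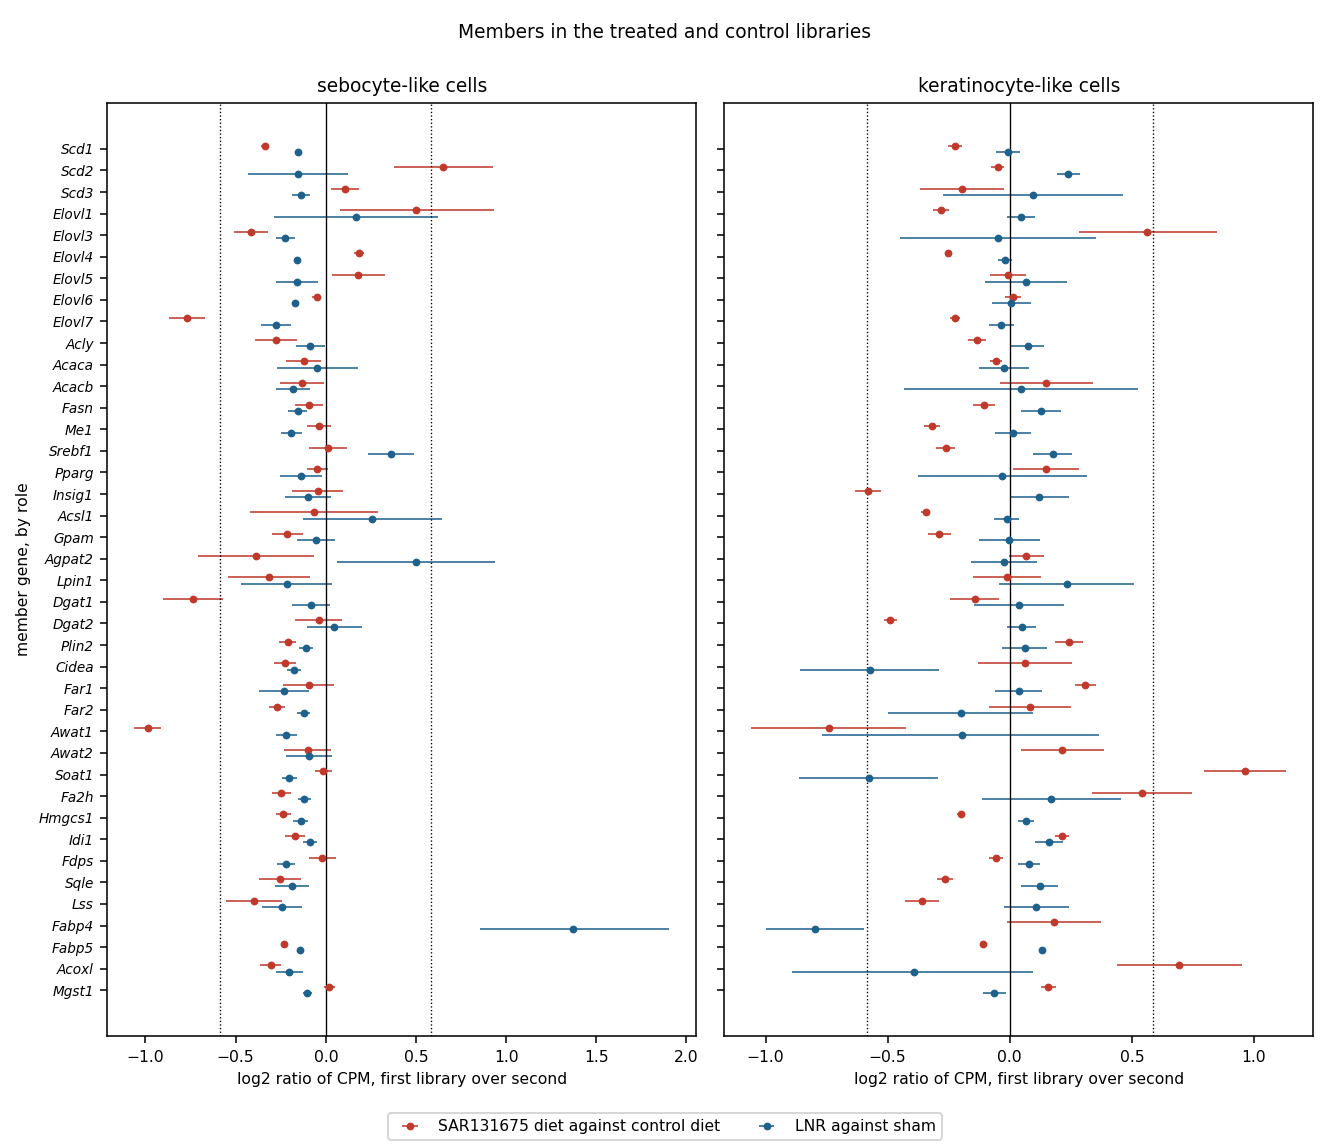
Log2 ratio of CPM for each member in sebocyte-like and keratinocyte-like cells, SAR131675 diet over control diet and LNR over sham, with exact 95% intervals for counting error and dotted lines at 1.5-fold; members with under 100 UMIs in a pair are not drawn. Most members lie between the lines; Awat1, Dgat1 and Elovl7 in the diet pair lie below them, at -0.99, -0.74 and -0.77.

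To ask what lymph node removal did, the LNR library was compared with sham. In sebocyte-like cells Fabp4 alone passed 1.5-fold, at 12.9 CPM (10.6 to 15.6) in LNR and 5.00 CPM (3.65 to 6.69) in sham, a log2 ratio of 1.37 (0.85 to 1.91) from 106 and 45 UMIs, of which 10 cells carried 87.7% and 82.2%. Its level in blood endothelial-like cells, which lead for this gene, was 4191 and 4350 CPM; the part of RNA from vessels in the sebocyte-like value was not tested. This was 1 of 40 members higher and 0 lower, where 0.670% of all 8513 tested genes were higher and 0.693% lower. Awat1, at 499 against 581 CPM, had a log2 ratio of -0.22 (-0.28 to -0.16), Dgat1 one of -0.08 (-0.19 to 0.023) and Elovl7 one of -0.27 (-0.36 to -0.19). The difference between the pairs in these genes was not tested. The median log2 ratio was -0.14 for the members and -0.01 for all tested genes, with 34 of 40 members below 0 beside 53.4% of all tested genes. Within the groups the members' median was 0.13 in the Krt5-high, -0.16 in the Bex1-high and 0.00 in the Akr1c21-high group. In the Krt5-high group Acoxl was higher past 1.5-fold, at 69.8 against 45.5 CPM (0.62; 0.29 to 0.95), where 0.634% of all 5359 tested genes were higher and 1.32% lower. In the Bex1-high group Agpat2 was higher, at 18.9 against 11.4 CPM (0.73; 0.18 to 1.28) from 71 and 49 UMIs, where 1.05% of all 5898 tested genes were higher and 0.797% lower.

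In keratinocyte-like cells Fabp4 was lower after LNR, at 4.46 against 7.74 CPM, a log2 ratio of -0.80 (-0.998 to -0.598), and was 1 of 39 tested members; 0 were higher. With each library clustered alone 15 were higher and the members' median log2 ratio was 0.35 in place of 0.04. The Fabp4 value turned to 0.22 with each library clustered alone and to 0.29 without called doublets. Of all 13082 tested genes 0.764% were higher and 0.726% lower. Soat1 was at 2.35 against 3.50 CPM there (-0.58; -0.86 to -0.29), just under 1.5-fold. In granular keratinocyte-like cells Elovl4 was at 1043 against 1134 CPM, Elovl1 at 355 against 332 CPM and Elovl7 at 294 against 304 CPM. Class by class, Fabp4 went both ways: it was higher in spinous keratinocyte-like cells, at 5.37 against 1.42 CPM (1.92; 1.34 to 2.54), beside 0.472% of all 9963 tested genes, and lower in granular ones, at 7.12 against 32.2 CPM (-2.18; -2.68 to -1.71), beside 1.44% of 6671. It was also lower in follicle infundibulum keratinocyte-like cells, at 7.42 against 44.8 CPM (-2.59; -3.17 to -2.05), where Elovl6 was higher at 34.8 against 22.9 CPM, beside 0.945% and 0.874% of all 6982 tested genes. The part of RNA from vessels in these Fabp4 values was not tested, and their intervals cover counting error only. The other members past 1.5-fold in a class were Cidea, lower in basal keratinocyte-like cells at 2.09 against 3.13 CPM (0.308% of 12011 genes), Fabp5, lower in outer root sheath keratinocyte-like cells at 105 against 162 CPM (1.65% of 1031 genes), and Elovl4 and Sqle, higher in nail-type keratinocyte-like cells at 83.1 against 51.3 CPM and 40.4 against 26.0 CPM (1.76% of 3743 genes). Tested members were 36 in basal, 29 in spinous, 24 in granular, 25 in follicle infundibulum and 15 in nail-type keratinocyte-like cells. Fabp5 was the 1 member tested in outer root sheath keratinocyte-like cells, which were 84 in LNR and 98 in sham. In all kept cells outside the sebocyte-like class, unnamed clusters included, 7 of 40 members were lower by 1.5-fold after LNR, Scd3, Elovl3, Cidea, Far2, Awat1, Fa2h and Acoxl, and 0 were higher, where 0.909% of all 15947 tested genes were lower. Far2 was at 3.45 against 7.10 CPM there, from 465 and 1005 UMIs, and Awat1 at 0.891 against 1.82 CPM, from 120 and 258 UMIs. An unnamed cluster of 3 LNR and 398 sham cells, led by the inner root sheath keratins Krt71 and Krt25, held 5 and 554 of these Far2 UMIs and 2 and 147 of the Awat1 UMIs. In the diet pair Elovl3 and Acoxl were higher and Awat1 lower over the same cells, beside 2.54% and 2.5% of all 18862 tested genes. Taken over the 6 classes or in sebocyte-like cells, no member passed 1.5-fold in the same direction in both pairs.

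The other genes of these pathways were read from 6 lists outside the members: cholesterol synthesis, sterol sensing and uptake, fatty acid synthesis and desaturation, triglycerides and lipid droplets, ceramide and skin barrier lipids, and sebaceous wax and ester synthesis. For 5 of these lists the gene with the highest level in sebocyte-like cells is given: Abca1, a cholesterol exporter, at 582, 682, 116 and 112 CPM, Tecr, a reductase of chain elongation, at 959, 1115, 1697 and 1748 CPM, Mgll, a monoglyceride lipase, at 1463, 1786, 2571 and 3038 CPM, Cers4, a ceramide synthase, at 1808, 2050, 2216 and 2387 CPM, and Acsbg1, an acyl-CoA synthetase, at 456, 500.2, 354 and 337 CPM. Within each pair these 5 genes lay within 1.5-fold. Genes of the lists named below were chosen after their values were seen, since none passed 1.5-fold in both pairs. In sebocyte-like cells on SAR131675 diet, 0 genes of any list were higher by 1.5-fold and 3 were lower, against the 1.22% and 1.73% of all genes given above. Of the wax and ester list 1 of 8 tested was lower, Dgat2l6, an acyltransferase of the Awat family, at 27.1 against 72.5 CPM, a log2 ratio of -1.42 (-1.66 to -1.19). Like Awat1 it was high in the Akr1c21-high group, at 226 CPM on SAR131675 diet and 529 CPM on control diet, and at most 1.13 CPM in the other groups. Of the triglyceride and droplet list 2 of 13 were lower, Cd36, a fatty acid transporter, at 142 against 214 CPM (-0.59; -0.70 to -0.48), and Cidec, a droplet protein, at 10.2 against 15.4 CPM (-0.60; -1.03 to -0.17).

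In keratinocyte-like cells on SAR131675 diet 0 of 16 genes of cholesterol synthesis and 0 of 11 of sterol sensing passed 1.5-fold in either direction, with list medians of -0.14 and -0.19 on the log2 scale beside -0.01 for all tested genes. Of 23 ceramide and barrier genes 3 were lower and 0 higher, where 2.68% of all 16180 tested genes were higher and 3.06% lower. These were the lipoxygenases Alox12b, at 21.3 against 38.5 CPM (-0.85; -0.90 to -0.80), and Aloxe3, at 15.5 against 26.1 CPM (-0.75; -0.81 to -0.69), and the dehydrogenase Sdr9c7, at 26.4 against 41.5 CPM (-0.65; -0.70 to -0.60), which act in turn on the linoleate of barrier ceramides. Granular keratinocyte-like cells, where these genes are highest, were 627 on SAR131675 diet and 883 on control diet, and within them the log2 ratios were -0.23 for Alox12b, -0.18 for Aloxe3 and -0.06 for Sdr9c7. The part of the cell numbers in the lower values was not tested. Of the remaining lists Fads2 (1 of 15 genes of fatty acid synthesis) and Mogat1 (1 of 16 triglyceride genes) were higher and Dgat2l6 (1 of 8 wax and ester genes) was lower, at levels under 7 CPM. Between LNR and sham 0 genes of the 6 lists passed 1.5-fold in either direction, in keratinocyte-like or in sebocyte-like cells, and the medians of the lists lay between -0.22 and 0.06.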

How the data were processed

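scRNA-Seq libraries were made with the 10x Genomics Single Cell 3' v3 kit from enzymatically dissociated digits. For each library the authors deposited counts of UMIs, unnormalized, which had been made with Cell Ranger (6.1.2 in the submitters' notes and in the headers of the LNR pair, 8.0.1 in those of the diet pair) on GRCm39; no normalized file was used. The program version can move a level, which was not tested, so CPM was compared within a pair.

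Cells with 200 to 5500 genes, at most 30000 UMIs and at most 10% mitochondrial UMIs were kept, the limits the study states for the LNR data, here applied to all libraries. Counts were scaled to log values and clustered with scanpy 1.11.5 (2000 variable genes without the members and pathway genes, 30 components, 20 neighbors, Leiden resolution 0.7), each pair apart. Clusters were named from marker lists, with at least 3 markers detected in 5% of cells a score of at least 0.3, a next class outside the family under 0.75 of that score and no other class ahead among the 10 leading genes; shallow clusters without a marker among these genes stayed unnamed. This scoring rule was set after the clusters were seen. Doublets were left in. Scrublet, run as an alternative, called 4.67%, 4.10%, 6.31% and 7.44% of the cells of the SAR131675 diet, control diet, LNR and sham libraries, where the cell numbers lead to 30.8%, 24.7%, 17.3% and 18.0%.

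Raw counts were summed by class and library and divided by the class total (CPM). With 1 library in a group no test was made: log2 ratios carry exact conditional 95% intervals, and a gene was named as higher or lower past 1.5-fold with at least 100 UMIs in the pair. Genes given in full were, for each role, the members with the highest CPM in any class, members past 1.5-fold in sebocyte-like cells in either pair or in keratinocyte-like cells in both, and the gene of each pathway list with the highest CPM in sebocyte-like cells; other members were added to account for all 40. The gene that this rule names for 1 of the lists is not reported here. The members, lists and rules were chosen with earlier results of these data known. Alternatives changed the filters, resolution, clustering, naming, shared barcodes, doublets, weighting and fold. The computation of ratios and intervals was checked on simulated counts. Promoters came from RefSeq (GRCm38.p6), and 3' ends from GENCODE transcripts.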

Additional observations from a re-analysis of the deposited data

How the results depend on the processing

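No paired analysis was possible because each group has 1 library, in which mice were pooled, and no replicate could be left out; LNR and sham digits may share mice. Under the settings that gave a sebocyte-like class, the count of members highest in it was 26 to 29 in the diet pair and 28 to 33 in the LNR pair. The counts of members past 1.5-fold in keratinocyte-like cells, which are small and come from low levels, moved, and the cause was not tested. For SAR131675 diet the count higher, 2, became 1 with at most 5% mitochondrial UMIs and without Scrublet calls, 0 at Leiden resolution 0.4, by per-cell marker vote, by mean over cells and at 2-fold, and 5 at resolution 1.2, with libraries clustered alone and without shared barcodes. The count lower, 1, became 2 with at most 5% mitochondrial UMIs, without Scrublet calls and by mean over cells, and 0 with libraries clustered alone and at 2-fold. For LNR the count higher, 0, became 2 without upper limits and 15 with libraries clustered alone, and the count lower, 1, became 2 without upper limits, at resolutions 0.4 and 1.2 and by mean over cells, and 0 with libraries clustered alone, without shared barcodes, without Scrublet calls and at 2-fold. The members' median log2 ratio for SAR131675 diet, -0.06, became -0.15 at resolution 0.4 and -0.16 by mean over cells, and for LNR, 0.04, became 0.35 with libraries clustered alone and -0.074 by marker vote.

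The log2 ratio of sebocyte-like shares became -0.40 by marker vote in the diet pair, from 123 and 134 cells. In the LNR pair it became -0.45 at resolution 1.2, from 131 and 187 cells, and -1.18 with libraries clustered alone, from 141 and 333 cells. These 3 intervals leave out 0, as do those of the LNR pair by marker vote (-0.23) and without shared barcodes (-0.28), so that the intervals holding 0 in the main setting were lost. Resolution 0.4 gave no sebocyte-like cluster in the diet pair, and the SAR131675 diet library clustered alone gave none, so those settings have no value. Among single members the sign turned in keratinocyte-like cells for Awat1 in the diet pair (0.40 with libraries clustered alone), Soat1 (-0.089 by mean over cells), Acoxl (-0.20 at resolution 0.4, -0.080 by marker vote and -0.26 by mean over cells) and Fabp4 in the LNR pair (0.22 with libraries clustered alone and 0.29 without Scrublet calls). In sebocyte-like cells it turned for Elovl7 on SAR131675 diet (0.14 by marker vote). The values of Awat1, Dgat1 and Scd2 on SAR131675 diet and of Fabp4 after LNR kept their sign in those cells, with ranges of -1.02 to -0.30, -0.74 to -0.45, 0.52 to 0.90 and 0.26 to 1.94. The count of members highest in 1 group of sebocyte-like cells in all 4 libraries, 33, was 35 at resolution 0.5 (32 in the same group as before) and 34 for cells of at least 3000 UMIs (33 in the same group), alternatives chosen after seeing the data. Depth limits the members with few UMIs: Fabp4 had 30 and 5 UMIs in the sebocyte-like cells of the diet pair, and no ratio was read from it.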
